A study of Tuber borchii with 4 samples.

Results

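Gene models of the polyketide synthase (PKS) and PKS-like clusters of *Tuber borchii* SP1 were examined, as 6 of the 12346 models of the Tubbor1 assembly. SP1 is a strain of the Bianchetto truffle and was grown as axenic mycelium. The members were taken by protein ID, which is the number at the end of each locus tag and the label in the plots, as the proteins that the study lists for its type I PKS cluster (B9Z19DRAFT_962914) and for its 2 PKS-like clusters (B9Z19DRAFT_1116892 alone, and B9Z19DRAFT_1121687, B9Z19DRAFT_970716, B9Z19DRAFT_1076327 and B9Z19DRAFT_970641 together), a rule that uses no measured value. Mycelium was kept in the dark in static liquid culture at 22 °C, and 1 RNA library was made per medium. WPG held woody plant medium with 20 g/L glucose, WPGY held the same with 5 g/L yeast extract added, PDB held potato dextrose broth at 20 g/L, and MPY held maltose at 35 g/L together with peptone and yeast extract at 5 g/L each. WPG and WPGY were harvested on day 65 and PDB and MPY on day 85, so that medium and culture age cannot be told apart between these 2 pairs. Each medium was represented by 1 library, and because there is no replicate for any of them no test was made.

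Type I PKSs are large enzymes that carry several catalytic domains on one protein and build a carbon chain by joining small acyl units. In filamentous fungi the genes often lie beside those of enzymes that modify the chain, and the products include pigments such as melanins, as well as toxins and signalling compounds. The black allomelanin pigments of truffles have a polyketide origin. The sources used here give no separate role to the single models of the PKS-like clusters, and they are therefore described by their ID.

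The deposited values were raw read counts per gene model. They summed to between 47969567 (MPY) and 157335190 (PDB) per library, and were divided by the library total and multiplied by 1000000 (CPM). One count was worth between 0.00636 CPM in PDB and 0.0208 CPM in MPY. Intervals are exact 95% Poisson intervals for levels and 95% Wilson intervals for ratios and shares, and they cover counting error only. Because the RNA came from whole mycelium, a smaller number of transcribing hyphae and less transcript per hypha cannot be told apart.

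The members lay at 3 places of the Tubbor1 assembly. Protein 962914's model, B9Z19DRAFT_962914, spanned 5724 bp, from 408341 to 414064 on sequence 9, and protein 1116892's model, B9Z19DRAFT_1116892, spanned 2434 bp, from 4391 to 6824 on sequence 298. The other 4 models followed each other on sequence 39 with no further model between them, within 17610 bp. Protein 1121687's model, B9Z19DRAFT_1121687, ran from 53453 to 60011 (6559 bp), and protein 970716's model, B9Z19DRAFT_970716, from 60925 to 66786 (5862 bp). Protein 1076327's model, B9Z19DRAFT_1076327, ran from 68297 to 69181 (885 bp), and protein 970641's model, B9Z19DRAFT_970641, from 70133 to 71062 (930 bp). The gap between B9Z19DRAFT_1121687 and B9Z19DRAFT_970716 was 913 bp. Spans include introns, and the median span of all models was 1241 bp. Models B9Z19DRAFT_962914, B9Z19DRAFT_1121687 and B9Z19DRAFT_970716 were longer than 99.3%, 99.6% and 99.4% of all models, whereas B9Z19DRAFT_1076327 and B9Z19DRAFT_970641 were shorter than the median. Whether these short models encode a PKS themselves is not given in the sources used here. None of the 6 overlapped another protein-coding model of the reference table. Whether reads could be shared between members of like sequence was not examined.

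The 2 long models of the cluster on sequence 39 were the most transcribed members in every library and differed most between the media. Model B9Z19DRAFT_970716 had 446 CPM in WPG (51927 counts), 478 CPM in WPGY (60006 counts), 1178 CPM in PDB (185388 counts) and 189 CPM in MPY (9085 counts). Model B9Z19DRAFT_1121687 had 381 CPM in WPG (44317 counts), 429 CPM in WPGY (53873 counts), 1169 CPM in PDB (183924 counts) and 184 CPM in MPY (8841 counts). Both were therefore highest in PDB, intermediate in the woody-plant-based media and lowest in MPY, and the counting intervals of the 4 libraries did not overlap for either model. Among all models ordered by CPM, B9Z19DRAFT_970716 ranked 83 in PDB and 1295 in MPY, and B9Z19DRAFT_1121687 ranked 86 and 1330. CPM favours long models, and by length-scaled counts, described further on, B9Z19DRAFT_1121687 ranked 720 in PDB and 4471 in MPY.

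The other 2 models of this cluster were not transcribed in the same way. Model B9Z19DRAFT_1076327, placed directly after B9Z19DRAFT_970716, had 1.56 CPM in WPG (181 counts), 1.73 CPM in WPGY (217 counts), 1.76 CPM in PDB (277 counts) and 1.69 CPM in MPY (81 counts). Its intervals overlapped in all 4 libraries, the widest being that of MPY from 1.34 to 2.10 CPM. Model B9Z19DRAFT_970641 had 12.6 CPM in WPG (1469 counts), 13.3 CPM in WPGY (1670 counts), 21.3 CPM in PDB (3349 counts) and 19.1 CPM in MPY (914 counts). It was higher in both complex media than in the woody-plant-based media, and its interval in PDB (20.6 to 22.0) lay just above that in MPY (17.8 to 20.3).

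The members outside this cluster were highest in the woody-plant-based media and lowest in MPY. The type I PKS model B9Z19DRAFT_962914 had 16.1 CPM in WPG (1878 counts), 16.5 CPM in WPGY (2073 counts), 14.3 CPM in PDB (2247 counts) and 11.2 CPM in MPY (539 counts). The PKS-like model B9Z19DRAFT_1116892 had 41.3 CPM in WPG (4804 counts), 42.7 CPM in WPGY (5354 counts), 33.3 CPM in PDB (5235 counts) and 26.2 CPM in MPY (1259 counts). In CPM, the intervals of WPG and WPGY overlapped for both models, and those of PDB and MPY lay below them and apart from each other. For B9Z19DRAFT_962914 the difference between PDB and WPG was smaller with other scalings, described further on.

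**Figure D1:**
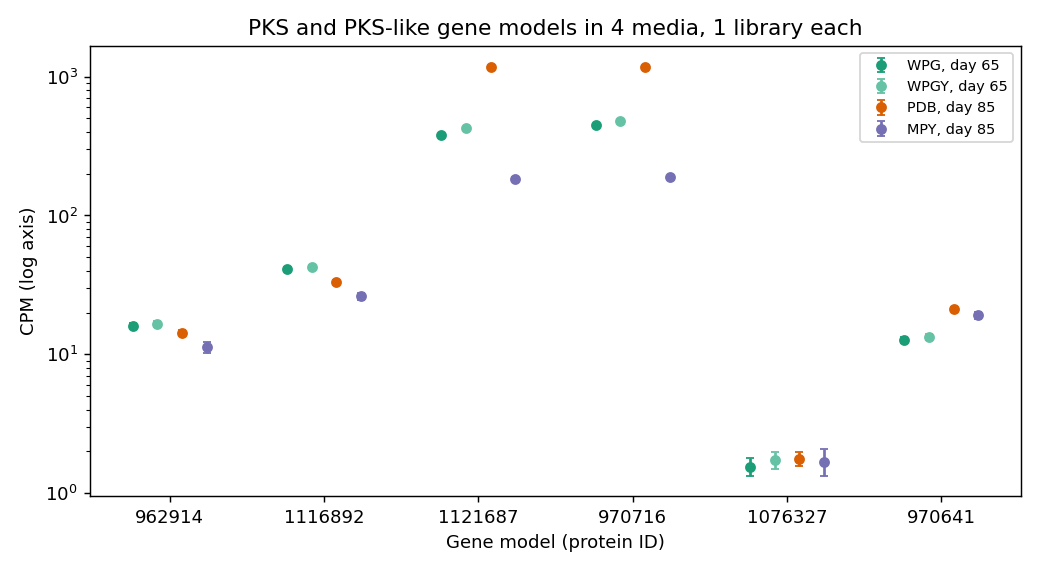
CPM (log axis) of the 6 PKS and PKS-like gene models in the 4 media, with 1 library per medium and bars for the exact 95% Poisson interval, often smaller than the point. Models B9Z19DRAFT_1121687 and B9Z19DRAFT_970716 lie at 1169 and 1178 CPM in PDB and at 184 and 189 CPM in MPY, while the other 4 models stay between 1.56 and 42.7 CPM.

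The ratio of the highest to the lowest CPM over the media was 6.34 for B9Z19DRAFT_1121687, 6.22 for B9Z19DRAFT_970716, 1.69 for B9Z19DRAFT_970641, 1.63 for B9Z19DRAFT_1116892, 1.47 for B9Z19DRAFT_962914 and 1.13 for B9Z19DRAFT_1076327. With 1 added to each CPM, the ratio of B9Z19DRAFT_1121687 was larger than that of 95.4% of the 8814 models that reached 1 CPM in any library, and that of B9Z19DRAFT_970716 larger than 95.3%. The ratio of B9Z19DRAFT_1076327 was larger than that of 1.07% of these models.

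To compare the members with each other, each count was divided by the span of its model and the result was rescaled to 1000000 (length-scaled counts). The order was B9Z19DRAFT_970716, B9Z19DRAFT_1121687, B9Z19DRAFT_1116892, B9Z19DRAFT_970641, B9Z19DRAFT_962914 and B9Z19DRAFT_1076327 in WPG, with 102, 77.8, 22.7, 18.2, 3.78 and 2.36 length-scaled counts. In PDB the values were 294 for B9Z19DRAFT_970716, 261 for B9Z19DRAFT_1121687, 33.5 for B9Z19DRAFT_970641, 20.0 for B9Z19DRAFT_1116892, 3.66 for B9Z19DRAFT_962914 and 2.91 for B9Z19DRAFT_1076327, so that B9Z19DRAFT_970641 stood above B9Z19DRAFT_1116892 there. It also did in MPY, where it had 29.9 length-scaled counts against 15.7, and where B9Z19DRAFT_970716 had 47.2 and B9Z19DRAFT_1121687 had 41.0. The last members in this order were close to each other, and in MPY the intervals of B9Z19DRAFT_962914 (2.63 to 3.12) and B9Z19DRAFT_1076327 (2.21 to 3.46) overlapped. The median over all models was between 19.0 (MPY) and 19.9 (PDB) length-scaled counts, which left B9Z19DRAFT_962914 and B9Z19DRAFT_1076327 below the median in every library. By length-scaled counts B9Z19DRAFT_970716 ranked 615 in PDB and 4091 in MPY.

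Models B9Z19DRAFT_1121687 and B9Z19DRAFT_970716 were compared with each other directly, since they lie side by side. The count of B9Z19DRAFT_1121687 was 0.853 times that of B9Z19DRAFT_970716 in WPG (interval 0.843 to 0.864), 0.898 times in WPGY (0.887 to 0.908), 0.992 times in PDB (0.986 to 0.999) and 0.973 times in MPY (0.945 to 1.00). The ratio stayed within a narrow range while the level of each model differed more than 6-fold between PDB and MPY, and it was lower in the woody-plant-based media than in the complex ones. Per length, B9Z19DRAFT_1121687 had between 0.763 (WPG) and 0.887 (PDB) times the value of B9Z19DRAFT_970716. Within the same cluster, B9Z19DRAFT_970716 had 8.78 times the length-scaled count of B9Z19DRAFT_970641 in PDB and 1.58 times that in MPY.

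The likeness of 2 profiles was measured as the Euclidean distance between log2(CPM + 1) values over the 4 media, after the mean of each model had been subtracted. The distance between B9Z19DRAFT_1121687 and B9Z19DRAFT_970716 was 0.18. The median over 5332 pairs of adjacent models, in which both reached 10 CPM in some library, was 0.73, and 6.41% of these pairs were nearer to each other. Models B9Z19DRAFT_1121687 and B9Z19DRAFT_970716 were 1.82 and 1.84 away from B9Z19DRAFT_970641, although all belong to one cluster. Models B9Z19DRAFT_962914 and B9Z19DRAFT_1116892, on different sequences, were 0.15 apart, but both have a small range, and such profiles lie near many others by this measure. These distances rest on 4 points each and describe the libraries only.

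The comparison of PDB with WPG asked which members differed between a complex and a woody-plant-based medium. Models B9Z19DRAFT_1121687 and B9Z19DRAFT_970716 were 3.07 (interval 3.04 to 3.10) and 2.64 (2.62 to 2.67) times as high in PDB. On the scale of log2(CPM + 1), where a 2-fold limit was applied to models with at least 1 CPM in either library, the differences were 1.62 and 1.40. Thus 2 of the 6 members were more than 2-fold higher in PDB, against 7.65% of the 8701 models tested. None was more than 2-fold lower, against 11.4%. Both called models lie side by side in the same cluster, and whether they are parts of a single gene was not examined. Here and in the comparisons below, the count of 2 therefore describes a single place and not the members as a group. Of all models tested, 278 had a larger ratio than B9Z19DRAFT_1121687 and 361 a larger one than B9Z19DRAFT_970716. Model B9Z19DRAFT_970641 was 1.69 times as high in PDB (interval 1.59 to 1.79), model B9Z19DRAFT_1076327 1.13 times (0.939 to 1.36), model B9Z19DRAFT_962914 0.885 times (0.832 to 0.941) and model B9Z19DRAFT_1116892 0.806 times (0.775 to 0.838). The median log2 difference was 0.41 over the members and -0.05 over all models tested.

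In MPY, the other complex medium, the same 2 models were lower than in WPG. Model B9Z19DRAFT_970716 was 0.424 times as high (interval 0.415 to 0.434) and model B9Z19DRAFT_1121687 0.484 times (0.473 to 0.495). By the 2-fold limit 2 of the 6 members were lower in MPY, against 14.4% of the 8742 models tested, and none was higher, against 9.6%. The call of B9Z19DRAFT_1121687 was close to the limit, with a log2 difference of -1.04, and it was lost with median-of-ratios scaling (-0.90) and with TMM scaling (-0.93), whereas that of B9Z19DRAFT_970716 was not. Model B9Z19DRAFT_962914 was 0.696 times as high in MPY as in WPG (interval 0.633 to 0.766) and B9Z19DRAFT_1116892 0.636 times (0.598 to 0.677). Model B9Z19DRAFT_970641 was 1.51 times as high (1.39 to 1.64), and model B9Z19DRAFT_1076327 1.09 times (0.836 to 1.41), an interval that includes equal levels. The median log2 difference was -0.56 over the members and -0.10 over all models tested.

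PDB and MPY were harvested on the same day according to the labels, and this comparison asked how the members differed between the 2 complex media. Model B9Z19DRAFT_1121687 had 0.158 times (interval 0.154 to 0.161) and model B9Z19DRAFT_970716 0.161 times (0.157 to 0.164) the CPM of PDB in MPY, with log2 differences of -2.66 and -2.63. By the 2-fold limit 2 of the 6 members were lower in MPY, against 8.93% of the 8430 models tested, and none was higher, against 8.37%. A larger fall than that of B9Z19DRAFT_1121687 was seen for 63 models and a larger one than that of B9Z19DRAFT_970716 for 65. The other members were lower in MPY as well, at 0.787 times for B9Z19DRAFT_962914, 0.789 times for B9Z19DRAFT_1116892, 0.895 times for B9Z19DRAFT_970641 and 0.959 times for B9Z19DRAFT_1076327, and the interval of the last (0.749 to 1.23) includes equal levels.

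Median-of-ratios scaling raised the median of all models by 0.11 on the log2 scale in PDB against WPG and by 0.13 in MPY against WPG. Relative to the median of all models in CPM, the log2 differences of B9Z19DRAFT_1121687 were 1.67 in PDB and -0.94 in MPY, and those of B9Z19DRAFT_970716 were 1.45 and -1.13. For B9Z19DRAFT_962914 in PDB against WPG, the log2 difference was -0.17 in CPM, -0.06 with median-of-ratios scaling and -0.05 with TMM scaling. Its levels were then 14.7 against 15.4 CPM and 14.9 against 15.5 CPM, so that its difference between these media depended on the scaling.

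**Figure D2:**
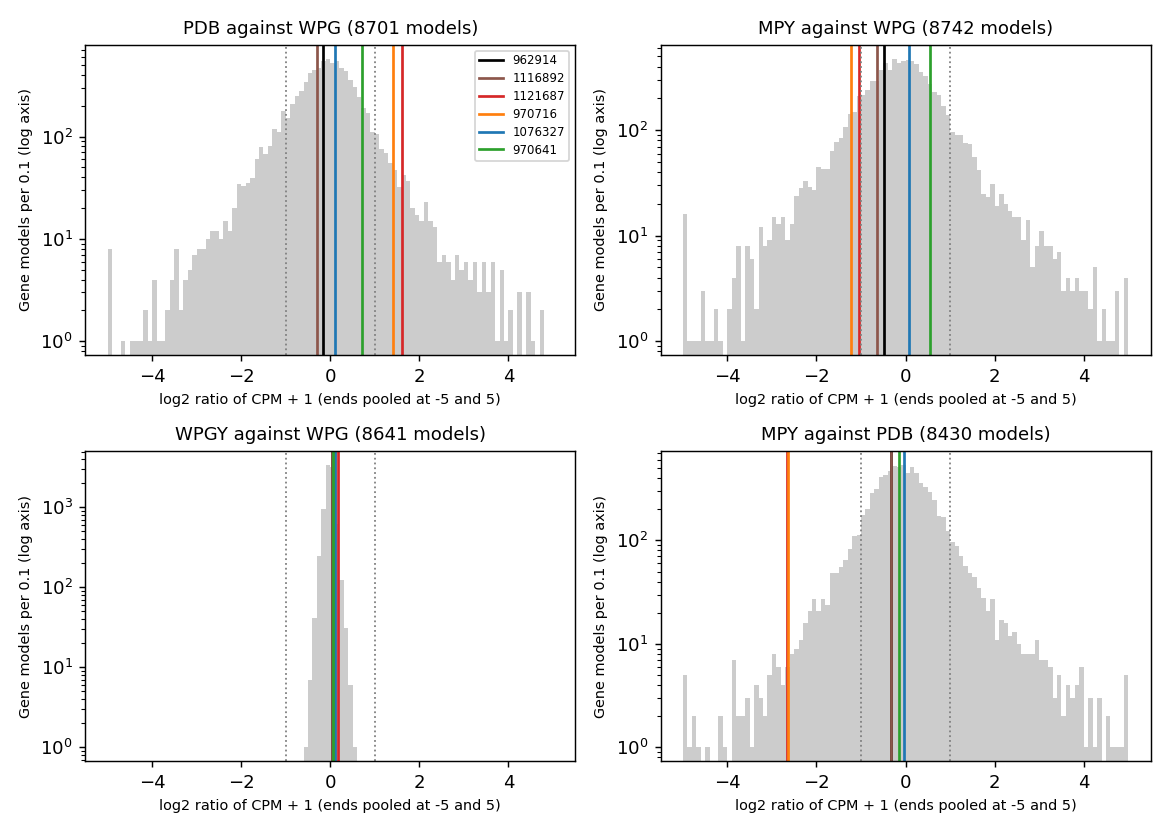
Histograms of the log2 ratio of CPM + 1 between media for all models with at least 1 CPM in either library (log count axis), with a line for each of the 6 members and dotted lines at the 2-fold limit. Models B9Z19DRAFT_1121687 and B9Z19DRAFT_970716 lie at 1.62 and 1.40 in PDB against WPG and at -2.66 and -2.63 in MPY against PDB, and all 6 lines lie near 0 in WPGY against WPG.

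The combination of both differences, more than 2-fold above WPG in PDB and more than 2-fold below WPG in MPY, was looked for after these values had been seen. It was met by 2 of the 6 members and by 26 of the 8814 models that reached 1 CPM in any library, or 0.295%. Since both differences use the WPG library, they are not independent of each other. With median-of-ratios or TMM scaling B9Z19DRAFT_1121687 no longer met it.

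WPGY and WPG were compared to see the members with and without yeast extract at one culture age. None of the 6 members was beyond the 2-fold limit, and of all 8641 models tested 0% were. All 6 members were slightly higher in WPGY, by 1.13 times for B9Z19DRAFT_1121687 (interval 1.11 to 1.14), 1.07 times for B9Z19DRAFT_970716 (1.06 to 1.08), 1.11 times for B9Z19DRAFT_1076327 (0.913 to 1.35), 1.05 times for B9Z19DRAFT_970641 (0.983 to 1.13), 1.03 times for B9Z19DRAFT_1116892 (0.994 to 1.07) and 1.02 times for B9Z19DRAFT_962914 (0.962 to 1.09). The intervals of the last 4 include equal levels. Of all models tested 46.3% were higher in WPGY, and so were all 6 of the nonribosomal peptide synthetase models tested, so that the direction was not particular to the PKS members. Over the 6978 models that had more than 1000 counts in WPG and in WPGY, log2 ratios had an SD of 0.083, and 5.27% of them differed more than B9Z19DRAFT_1121687 and 19.2% more than B9Z19DRAFT_970716. The spread between repeated libraries of one medium was not measured.

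Of all counts of a library, the 6 members together took 0.242% in PDB (interval 0.241 to 0.243), 0.0432% in MPY (0.0426 to 0.0438), 0.0899% in WPG (0.0893 to 0.0904) and 0.0982% in WPGY (0.0976 to 0.0987). Models B9Z19DRAFT_1121687 and B9Z19DRAFT_970716 made up 97.1% of this sum in PDB, 86.5% in MPY, 92.0% in WPG and 92.4% in WPGY. The 4 other members took 0.00706% in PDB, 0.00582% in MPY, 0.00716% in WPG and 0.00742% in WPGY, a much smaller range. With length-scaled counts the share of the 6 members was 0.0616% in PDB, 0.0140% in MPY, 0.0227% in WPG and 0.0249% in WPGY, and the order of the media was the same.

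The surroundings of the cluster on sequence 39 were examined over 5 models on each side. Of these 10 neighbours, 4 reached 1 CPM in any library, against 71.4% of all 12346 models, while 5 had fewer than 10 counts in every library and 2 of them had no count at all. Model B9Z19DRAFT_1121686, which ends 2602 bp before B9Z19DRAFT_1121687, had 1.23 CPM in PDB, 1.46 CPM in MPY, 6.62 CPM in WPG and 6.33 CPM in WPGY. It was thus 0.186 times as high in PDB as in WPG, opposite in direction to its neighbour B9Z19DRAFT_1121687. Model B9Z19DRAFT_970611, the next one outward and named after its values had been seen, had 3.95 CPM in PDB, 2.21 CPM in MPY, 17.4 CPM in WPG and 16.4 CPM in WPGY. Of the 4 neighbours tested, these 2 were beyond the 2-fold limit against WPG, and both were lower in PDB and in MPY. Of all models tested, 11.4% were more than 2-fold lower in PDB and 14.4% in MPY. Further out, model B9Z19DRAFT_1062354, also named after its values had been seen, lay between 38.0 CPM (WPG) and 44.4 CPM (MPY).

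On the other side, model B9Z19DRAFT_1121691, separated from B9Z19DRAFT_970641 by 4436 bp, had 10.5 CPM in PDB, 11.3 CPM in MPY, 5.73 CPM in WPG and 5.69 CPM in WPGY. Like B9Z19DRAFT_970641, it was higher in both complex media than in the woody-plant-based ones, with 1.84 times the CPM of WPG in PDB and 1.97 times in MPY. None of the 4 neighbours tested was more than 2-fold higher in PDB than in WPG, against 7.65% of all models tested. The 6 neighbours below 1 CPM were too low for a 2-fold difference to be judged.

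**Figure D3:**
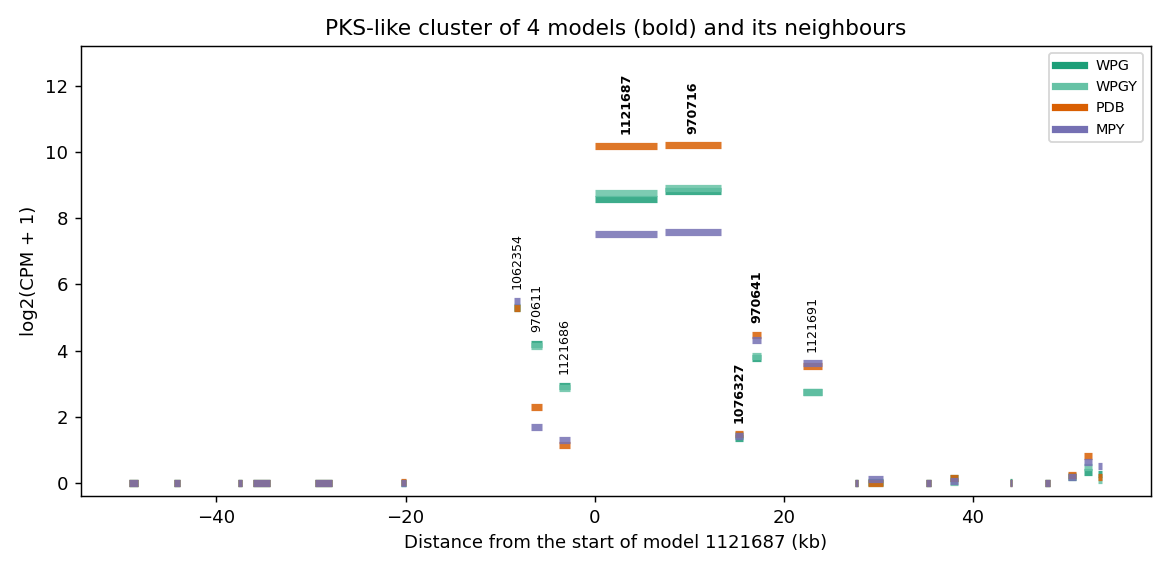
log2(CPM + 1) of the gene models around the cluster on sequence 39 in the 4 media, against the distance from the start of model B9Z19DRAFT_1121687 in kb. Each bar spans 1 model, members are in bold, and models B9Z19DRAFT_1121687 and B9Z19DRAFT_970716 stand above neighbours that reach at most 44.4 CPM.

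The surroundings of the other members held more transcribed models. Of the 10 models beside B9Z19DRAFT_962914, 9 reached 1 CPM in any library, against 71.4% of all 12346 models, and 4 exceeded 100 CPM. More than 2-fold lower than in WPG were 1 of the 9 tested in PDB and 3 of the 9 tested in MPY. In MPY against PDB 2 of 8 were lower, and none was more than 2-fold higher in these comparisons. In the same order, 11.4%, 14.4% and 8.93% of all models tested were lower, and 7.65%, 9.6% and 8.37% were higher. The model before B9Z19DRAFT_962914, B9Z19DRAFT_1098591, had 10.9 CPM in PDB, 16.4 CPM in MPY, 12.4 CPM in WPG and 13.4 CPM in WPGY. It was thus highest in the medium in which B9Z19DRAFT_962914 was lowest. The model after it, B9Z19DRAFT_1072190, had between 1 count (MPY) and 43 counts (PDB). Beside B9Z19DRAFT_1116892, which is the third model of its sequence, all 7 neighbours reached 1 CPM and none was beyond the 2-fold limit in PDB or in MPY against WPG. Model B9Z19DRAFT_1196222 before it had 41.4 CPM in PDB, 55.0 CPM in MPY, 46.5 CPM in WPG and 45.1 CPM in WPGY. Model B9Z19DRAFT_1133263 after it had 68.5 CPM in PDB, 85.1 CPM in MPY, 129 CPM in WPG and 127 CPM in WPGY. Like B9Z19DRAFT_1116892, it was lower in both complex media than in WPG.

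For each member that reached 10 CPM, the 3 most similar profiles were sought among 7223 models by the distance described above. The nearest to B9Z19DRAFT_970716 was model B9Z19DRAFT_1003973, at a distance of 0.075, with 1873 CPM in PDB, 316 CPM in MPY, 711 CPM in WPG and 741 CPM in WPGY. It was followed by B9Z19DRAFT_961512 at 0.083, with 760 CPM in PDB, 126 CPM in MPY, 299 CPM in WPG and 334 CPM in WPGY. Next came B9Z19DRAFT_161045 at 0.17. For B9Z19DRAFT_1121687 the nearest were B9Z19DRAFT_1087544 at 0.13, B9Z19DRAFT_1003973 at 0.16 and B9Z19DRAFT_1081029 at 0.17. Model B9Z19DRAFT_1081029 had 1467 CPM in PDB, 245 CPM in MPY, 505 CPM in WPG and 495 CPM in WPGY. None of these models lies on a sequence that holds a member. With Pearson correlation in place of the distance, 0 of the 3 named models were the same for either B9Z19DRAFT_970716 or B9Z19DRAFT_1121687. Within a distance of 0.25 there were 8 other models for B9Z19DRAFT_970716 and 8 for B9Z19DRAFT_1121687, the partner of each included.

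Within the same distance of 0.25 there were 694 models for B9Z19DRAFT_962914, 530 for B9Z19DRAFT_1116892 and 329 for B9Z19DRAFT_970641. Profiles with a small range lie near many others by this measure, so these numbers reflect the range of each member and are not compared with those above. The nearest models were B9Z19DRAFT_1125096, B9Z19DRAFT_1082486 and B9Z19DRAFT_845338 for B9Z19DRAFT_962914, at distances from 0.012 to 0.020, then B9Z19DRAFT_1071046, B9Z19DRAFT_1071994 and B9Z19DRAFT_987783 for B9Z19DRAFT_1116892, from 0.019 to 0.046, and B9Z19DRAFT_1127577, B9Z19DRAFT_1064449 and B9Z19DRAFT_1104260 for B9Z19DRAFT_970641, from 0.021 to 0.033. Model B9Z19DRAFT_1076327 did not reach 10 CPM and was left out of the search.

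**Figure D4:**
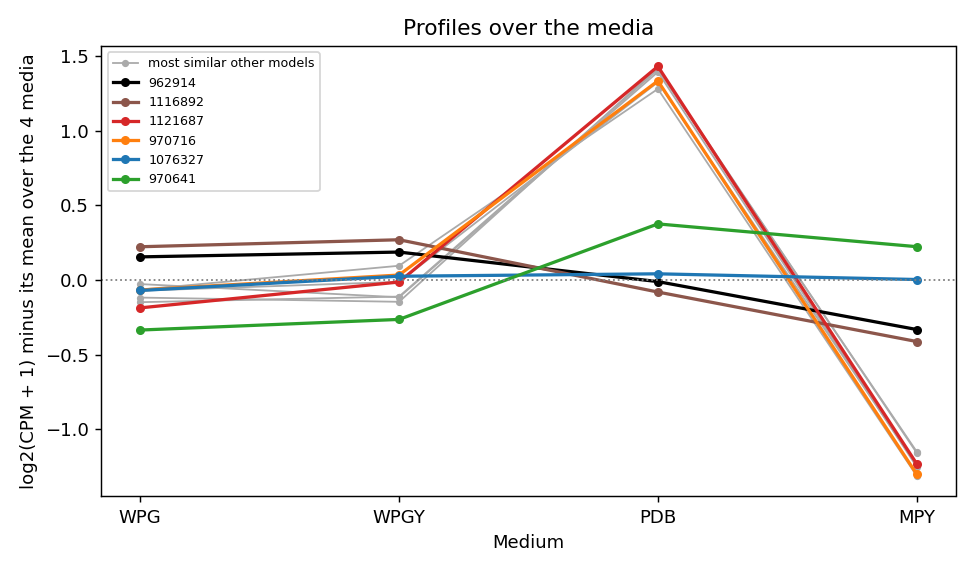
log2(CPM + 1) of each member minus its mean over the 4 media (coloured lines), with the 5 other models most similar to B9Z19DRAFT_1121687 or B9Z19DRAFT_970716 in grey. The red and orange lines rise in PDB and fall in MPY, whereas the other 4 members stay within a narrower range. The grey models were chosen for their nearness on these same values, so they follow the red and orange lines by construction.

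The 7 nonribosomal peptide synthetase (NRPS) and NRPS-like models that the study lists beside the PKS models were set next to them. NRPSs assemble peptides without a ribosome and share with PKSs a carrier domain that holds the growing chain. Of the 7 models, 6 reached 1 CPM in each comparison. In PDB against WPG 1 of them, the NRPS-like model B9Z19DRAFT_1032817, was more than 2-fold higher (7.65% of all models tested) and none was lower (11.4%). In MPY against WPG the same model was the 1 of 6 that was higher (9.6% of all models tested). It had 7.56 times the CPM of WPG (interval 6.75 to 8.48), where its level was low at 3.35 CPM. This ratio of the highest to the lowest CPM was larger than that of any PKS member. With 1 added to each CPM it was 6.06, below 6.31 for B9Z19DRAFT_1121687 and 6.19 for B9Z19DRAFT_970716. In MPY against PDB 2 (B9Z19DRAFT_1032817 and the NRPS model B9Z19DRAFT_1122331) were more than 2-fold higher (8.37% of all models tested), where no PKS member was. The median log2 difference in MPY against PDB was 0.17 over the NRPS models and -0.33 over the PKS members. The 7 models together took between 0.0226% (PDB) and 0.0243% (WPGY) of the counts, although B9Z19DRAFT_1032817 alone differed 7.56-fold. Model B9Z19DRAFT_1126844 had the highest CPM of them in every library, between 110 CPM (MPY) and 135 CPM (PDB). Of the 6 tested, 3 were higher and 3 lower than in WPG, both in PDB and in MPY. The narrow range of the sum therefore does not describe the single models. The share of the 6 PKS members in PDB was several times that in MPY. The 4 members other than B9Z19DRAFT_1121687 and B9Z19DRAFT_970716 took between 0.00582% (MPY) and 0.00742% (WPGY).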

How the data were processed

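RNA from mycelium was sequenced in read pairs, which the authors passed through FastQC and Trimmomatic, then aligned by STAR with the Tubbor1 genome of strain Tbo3840 and counted by featureCounts. Strand and multi-mapping settings are not given in the sources used here. The deposited counts are whole numbers per gene model without normalization. The sample labels give day 65 (WPG, WPGY) and day 85 (PDB, MPY), whereas the headers of the count columns read 64 for both woody-plant-based media, 85 for PDB and 83 for MPY.

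CPM, ranks and log2 ratios with a pseudocount of 1 CPM were computed in Python 3.11.15 with scipy 1.17.1, numpy 2.4.6, matplotlib 3.10.9 and pandas 2.3.3. The 2-fold limit was applied to models with at least 1 CPM in either library. TMM factors came from edgeR 4.0.16 and median-of-ratios factors from DESeq2 1.42.0. With 1 library per medium no p-value was computed. Spans and positions came from the gene table of the assembly, in which 12345 of 12346 models were found. This table has no product names or strands and no sequence was at hand, so lists of genes by function and sequences were not used here. The 2-fold calls, the profile search and the Poisson intervals for levels were tested on simulated counts that held counting error only. The planted differences were well beyond the 2-fold limit and lay in models well above 1 CPM. Recovery of differences near either limit was therefore not tested.

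The rule for the members uses no measured value, but the group of genes, the lists and the alternatives were chosen with earlier results of these data known. Named genes were the 6 members, the model on each side of each place that holds members, the 7 NRPS models, and the 3 models nearest in profile to each member that reached 10 CPM, with B9Z19DRAFT_970611 and B9Z19DRAFT_1062354 added after their values were seen. The alternatives were TMM and median-of-ratios scaling, length-scaled counts, a pseudocount of 0.1 or 5, dropping the filter on low values, limits of 1.5-fold and 4-fold, a total without the 10 highest genes of any library, ranks over models with counts in every library, Pearson correlation, and 10 models on each side. WPGY in place of WPG, and the sum without B9Z19DRAFT_1121687 and B9Z19DRAFT_970716, were added after seeing the data.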

Additional observations from a re-analysis of the deposited data

How the results depend on the processing

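The 2 members above the 2-fold limit in PDB against WPG, and the 2 below it in MPY against WPG, numbered 0 each at a 4-fold limit, and the 2 below it in MPY against PDB stayed 2. In MPY against WPG 1 member was below the limit with median-of-ratios scaling and 1 with TMM scaling. With WPGY in place of WPG the log2 difference of B9Z19DRAFT_1076327 in MPY turned from 0.07 to -0.022. At a 1.5-fold limit 3 members were higher in PDB than in WPG and 3 were lower in MPY than in WPG. The shares of all models beyond the 1.5-fold and 4-fold limits are not given here, so the counts at these limits cannot be set against all models. The other counts of members beyond the limit did not change under the settings tried. The summed share of the members with median-of-ratios scaling was 0.250% in PDB, 0.0455% in MPY, 0.0858% in WPG and 0.0944% in WPGY. After scaling by length the shares were 0.0616%, 0.0140%, 0.0227% and 0.0249%. With a total without the 10 highest genes of any library they were 0.258%, 0.0468%, 0.101% and 0.110%, and without B9Z19DRAFT_1121687 and B9Z19DRAFT_970716 they were 0.00706%, 0.00582%, 0.00716% and 0.00742%, in the same order of media. These 4 settings change the scale or the set by construction, and PDB kept the highest share and MPY the lowest in the first 3. Without B9Z19DRAFT_1121687 and B9Z19DRAFT_970716, WPGY had the highest share. With Pearson correlation in place of the distance, 0 of the 3 named models were the same for B9Z19DRAFT_962914, 0 for B9Z19DRAFT_1116892, 0 for B9Z19DRAFT_1121687, 0 for B9Z19DRAFT_970716 and 1 for B9Z19DRAFT_970641, and the cause was not tested. With 10 models on each side of the cluster on sequence 39, 21.1% of the neighbours reached 1 CPM against 40% with 5. With length-scaled counts in place of CPM 21 of the 24 ranks of members moved outside the ranks that their counting intervals span, and with ranks over models with counts in every library none did. With 1 library per medium, differences between libraries of one medium cannot be judged. No paired analysis was possible because each medium has 1 library.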
